A study of Mus musculus with 18 samples.

Results

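The effect of ertugliflozin (ERTU) on the failing heart was measured by RNA sequencing of left ventricle from mice that overexpress Gαq. The comparison holds every library of this genotype, which is 9 of the 18 in the series. Of these, 5 came from Gαq mice on a control diet (CD) and 4 from Gαq mice whose chow carried 0.5 mg ERTU per g. Treatment began at an age of 4 weeks, lasted 16 weeks and ended at 20 weeks. All mice were males of strain FVB/N, so both groups share the transgene and the strain and differ by the chow. WT mice, 4 on CD and 5 on ERTU, gave the background for each value. Gαq is expressed in this model by a transgene that acts in the heart only and models 1 cause of heart failure, a signal inside the cardiomyocyte. Each library came from 1 heart.

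Gαq, encoded by Gnaq, is the G protein alpha subunit that couples receptors for angiotensin II, endothelin and alpha1-adrenergic agonists to phospholipase C. Its overexpression in cardiomyocytes leads to hypertrophy, cell death, dilation and pump failure, with return of fetal genes and loss of the enzymes that burn fatty acids. ERTU inhibits SGLT2, the sodium-glucose cotransporter of the renal proximal tubule, and causes loss of glucose in the urine. Drugs of this class lower admissions for heart failure in people, although cardiomyocytes hold little or no SGLT2.

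Levels are given in CPM, the count of read pairs of a gene scaled to a common library size. They are listed in the order of libraries 6, 7, 8, 9 and 10 for Gαq CD and of libraries 16, 17, 18 and 20 for Gαq ERTU. Total counts ran from 16408011 to 20908363 for the CD group and 16481268 to 20647195 for the ERTU group. Slc5a2, the gene for SGLT2, was too low to test. It had 0, 1, 0, 1 and 0 read pairs in Gαq CD and 1, 2, 3 and 2 in Gαq ERTU.

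Gnaq was read first, as the check of the transgene. It stood at 6299, 9693, 8037, 11662 and 1639 CPM in Gαq CD and at 2389.7, 5202, 2234 and 3028 CPM in Gαq ERTU, against a mean of 118 CPM in WT CD. Gnaq was thus high in every Gαq library, but CD library 10 lay below all 4 ERTU libraries, and the other 4 CD libraries lay above them. The log2 fold change of ERTU over CD was -1.22 ± 0.50 (SE, 95% interval -2.27 to -0.17, edgeR adjusted p = 0.653), which did not pass the test. The counts do not tell transgene from endogenous Gnaq reads, and the part of this difference in the results that follow was not tested.

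Of 16270 genes tested, 1 (0.00615%) differed between Gαq ERTU and Gαq CD at an edgeR adjusted p under 0.05. This gene was Themis2, which was lower on ERTU. DESeq2 called 5 of 18761 genes (0.0267%), and all 5 were lower on ERTU: Themis2, Lcp2, Cx3cr1, C3ar1 and Tlr1. Without a correction for multiple tests, 1240 genes (7.62%) had an edgeR p under 0.05 where 813.5 would be given by that threshold if no gene changed, and 217 had a p under 0.01. Of the 1240 genes, 575 (3.53% of all tested) were higher and 665 (4.09%) lower on ERTU. The groups did not overlap for 121 genes that were higher (0.744%) and 139 that were lower (0.854%). The smallest adjusted p after that of Themis2 was 0.236.

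Most effects were small. The median log2 fold change was -0.00, with 5th and 95th percentiles of -0.46 and 0.45. For 13599 genes (83.6%) the 95% interval lay within 1 log2 unit of 0 on both sides. A change of over 2 times was therefore outside the interval for these genes. For any gene, a difference smaller than the half-width of its interval could not be told from 0. That half-width was 0.32 at the median of all genes tested. The count of genes with an unadjusted p under 0.05 depended on single libraries. It was 641 without Gαq CD library 7 and 2160 without Gαq CD library 10.

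**Figure D1:**
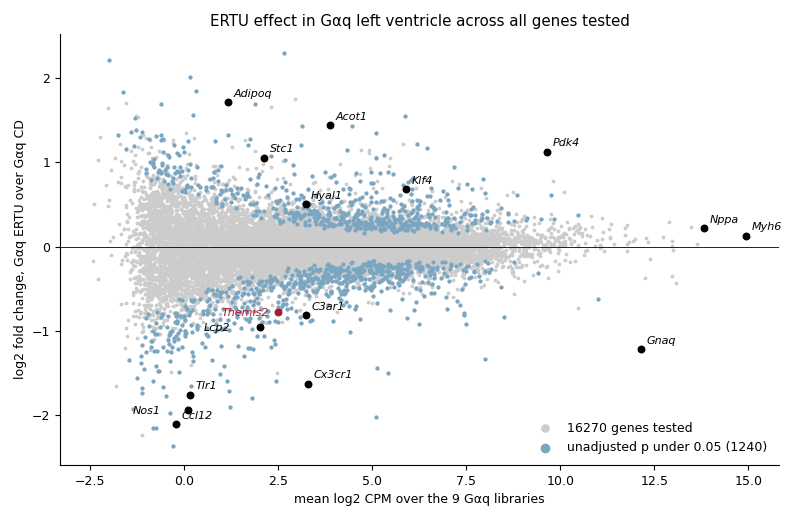
Each point is 1 of the 16270 genes tested, with the mean log2 CPM over the 9 Gαq libraries on the horizontal axis and the log2 fold change of Gαq ERTU over Gαq CD on the vertical axis. Blue points are the 1240 genes with an unadjusted p under 0.05, black points are genes named in the text, and Themis2 (red, log2 fold change -0.77) is the gene past an adjusted p of 0.05.

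The 5 genes called by DESeq2 belong to cells of the immune system. Themis2 encodes an adaptor of B cells and macrophages that acts in antigen receptor and Toll-like receptor signalling. Lcp2 encodes SLP-76, an adaptor below the T cell receptor and other immune receptors. Cx3cr1 encodes the receptor for fractalkine on monocytes and macrophages, C3ar1 the receptor for complement fragment C3a, and Tlr1 a Toll-like receptor for bacterial lipopeptides.

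Themis2 (ENSMUSG00000037731, chromosome 4, 132781843 to 132796387, minus strand, GRCm38) stood at 6.33, 7.78, 6.95, 7.27 and 6.41 CPM in Gαq CD and at 4.44, 3.93, 4.23 and 3.72 CPM in Gαq ERTU. The 2 groups did not overlap, and all 4 ERTU libraries were also below the WT CD mean of 5.65 ± 0.505 CPM (SD, n = 4). Its log2 fold change was -0.77 ± 0.12 (SE, 95% interval -1.01 to -0.52, edgeR adjusted p = 0.0459), a level 1.7 times lower on ERTU. The call rests on all libraries together, since leaving out any 1 of the 18 gave an edgeR adjusted p between 0.0528 and 0.409, with a log2 fold change from -0.81 to -0.72. In WT the log2 fold change was -0.17, and the difference of the 2 effects had an unadjusted interaction p of 0.00185, with no gene past the adjusted threshold.

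Lcp2 (ENSMUSG00000002699, chromosome 11, 34046920 to 34092295, plus strand) stood at 4.85, 4.69, 6.13, 4.76 and 5.81 CPM in Gαq CD and at 2.92, 2.49, 2.93 and 2.53 CPM in Gαq ERTU. Every ERTU library lay below every CD library and near the WT CD mean of 2.48 CPM. Its log2 fold change was -0.95 ± 0.17 in edgeR, where the adjusted p was 0.236, and it passed only under DESeq2 (adjusted p = 0.0041).

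Cx3cr1 (ENSMUSG00000052336, chromosome 9, 119901616 to 120069879, minus strand) was spread out on CD, with 11.5, 24.7, 9.74, 25.1 and 13.9 CPM, against 5.24, 8.25, 4.57 and 3.95 CPM on ERTU. The groups did not overlap, but the gap between CD library 8 and ERTU library 17 was small. The log2 fold change of Cx3cr1 was -1.63 ± 0.32, or 3.09 times lower.

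C3ar1 (ENSMUSG00000040552, chromosome 6, 122847138 to 122856161, minus strand) had 10.1, 14, 14.6, 12 and 9.6 CPM in Gαq CD and 7.91, 4.54, 7.51 and 7.58 CPM in Gαq ERTU, a log2 fold change of -0.81 ± 0.17. ERTU library 17 was the lowest of the 9. Tlr1 (ENSMUSG00000044827, chromosome 5, 64924679 to 64933563, minus strand) had 0.921, 1.98, 1.6, 2.5 and 1.78 CPM in Gαq CD and 0.487, 0.443, 0.677 and 0.459 CPM in Gαq ERTU, a log2 fold change of -1.76 ± 0.37. Its levels are close to 1 CPM, so each value rests on few read pairs. In both genes the groups did not overlap.

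**Figure D2:**
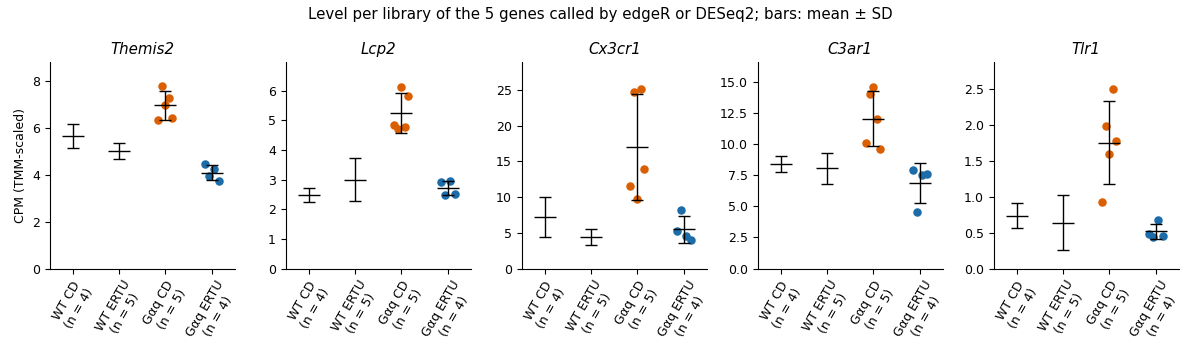
CPM of the 5 genes called by edgeR or DESeq2, with 1 point per Gαq library (CD in orange, ERTU in blue) and bars for the mean ± SD of each of the 4 groups. In each panel the 4 Gαq ERTU libraries lie below the 5 Gαq CD libraries, and the Gαq CD mean is the highest of the 4 groups.

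The 250 bases before the RefSeq start of each of these 5 genes are shown, in the orientation of the gene and on build GRCm38.p6, since they are the called genes. Capitals mark GAGGAAGT, the core of the site of PU.1, a factor of myeloid and B cells, searched on both strands.
Themis2, chr4:132796365-132796614 (minus strand): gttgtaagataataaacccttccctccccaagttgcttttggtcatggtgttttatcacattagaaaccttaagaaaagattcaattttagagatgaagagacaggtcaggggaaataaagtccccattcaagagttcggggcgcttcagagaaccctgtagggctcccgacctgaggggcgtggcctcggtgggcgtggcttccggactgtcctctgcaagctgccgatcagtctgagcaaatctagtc
Lcp2, chr11:34046678-34046927 (plus strand): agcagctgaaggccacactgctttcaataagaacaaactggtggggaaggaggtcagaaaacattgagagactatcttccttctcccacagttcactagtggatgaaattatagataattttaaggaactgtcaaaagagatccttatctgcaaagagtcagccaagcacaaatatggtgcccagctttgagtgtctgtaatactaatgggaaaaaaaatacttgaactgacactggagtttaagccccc
Cx3cr1, chr9:120068297-120068546 (minus strand): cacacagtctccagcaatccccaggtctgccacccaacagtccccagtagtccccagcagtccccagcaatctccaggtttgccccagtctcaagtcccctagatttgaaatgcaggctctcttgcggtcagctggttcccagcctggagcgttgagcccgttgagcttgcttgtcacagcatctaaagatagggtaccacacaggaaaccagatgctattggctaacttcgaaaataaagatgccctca
C3ar1, chr6:122856158-122856407 (minus strand): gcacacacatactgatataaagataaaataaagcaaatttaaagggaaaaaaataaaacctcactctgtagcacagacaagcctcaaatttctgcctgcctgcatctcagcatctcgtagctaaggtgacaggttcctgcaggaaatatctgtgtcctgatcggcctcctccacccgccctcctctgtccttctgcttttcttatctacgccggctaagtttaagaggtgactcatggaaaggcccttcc
Tlr1, chr5:64933559-64933808 (minus strand): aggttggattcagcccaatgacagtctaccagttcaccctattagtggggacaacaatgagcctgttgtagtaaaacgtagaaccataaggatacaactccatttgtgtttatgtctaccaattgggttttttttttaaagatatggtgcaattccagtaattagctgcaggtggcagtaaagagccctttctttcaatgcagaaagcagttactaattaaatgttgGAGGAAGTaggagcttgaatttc
These letters were found in the window of Tlr1 and not in the other 4, and in 2.44% of all 32851 windows of this length. The window of Cx3cr1 lies wholly inside the span given for that gene above, so it does not describe the bases upstream of that span. The match is a description of the sequence, and binding was not measured.

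Further genes that were lower on ERTU are named by the size of their p, among those with a mean log2 CPM of at least 1 and groups that do not overlap. Fyb, an adaptor that binds SLP-76, stood at 7.98, 9.23, 8.55, 8.93 and 7.68 CPM on CD and 6.03, 5.54, 7.05 and 5.65 CPM on ERTU (log2 fold change -0.48 ± 0.11). Nckap1l, a subunit of the actin-regulating WAVE complex in blood cells, was at 19.5, 19.6, 20.4, 20.2 and 18.3 CPM on CD and 11.8, 15.9, 15.4 and 15.2 CPM on ERTU (-0.43 ± 0.10). For both genes the ERTU libraries were all below the CD libraries, with an adjusted p of 0.653. Hk3 (-0.97 ± 0.25), a hexokinase of myeloid cells, Myo1g (-0.66 ± 0.18), a myosin of leukocytes, and Marcks (-0.41 ± 0.10), a substrate of protein kinase C, had the same order of the groups. Slfn9 (-1.20 ± 0.31), a Schlafen gene, did so too. Nup205, a scaffold protein of the nuclear pore, had a log2 fold change of -0.39 ± 0.09, and Slc35g1, a membrane protein, one of -0.88 ± 0.24. None of these genes passed the adjusted test.

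No gene that was higher on ERTU passed the test in any tool. Under the same conditions on level and overlap, the smallest p belonged to Hyal1, a lysosomal hyaluronidase. Hyal1 stood at 7.74, 7.54, 8.5, 7.8 and 8.05 CPM on CD and 10.3, 10.6, 12.9 and 11.1 CPM on ERTU, with no overlap (log2 fold change 0.50 ± 0.12, edgeR adjusted p = 0.653). In order of p, other genes so named were Taf1b (0.32 ± 0.09), a subunit of the factor SL1 that acts with RNA polymerase I, Isoc2a (0.33 ± 0.10), Cxxc1 (0.25 ± 0.07), which binds unmethylated CpG, and Aldh1l1 (0.72 ± 0.21), which oxidizes 10-formyltetrahydrofolate. After these came Dbr1 (0.35 ± 0.11), which debranches intron lariats, Plcl2 (0.29 ± 0.09), a phospholipase-like protein without lipase activity, Taf1d (0.34 ± 0.10), another subunit of SL1, and Fam207a (0.32 ± 0.10).

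Among such genes with an unadjusted p under 0.01, the log2 fold change was largest for Stc1, followed by Aldh1l1 and Klf4. Stc1, which encodes the secreted protein stanniocalcin 1, had 3.01, 3.09, 1.83, 3.93 and 4.03 CPM on CD and 6.03, 5.04, 8.69 and 6.61 CPM on ERTU (1.06 ± 0.33). Klf4, a Krüppel-like transcription factor, had 57.1, 46.7, 44.7, 43.4 and 51.6 CPM on CD and 69.1, 76.5, 79.4 and 87.5 CPM on ERTU (0.68 ± 0.24). Each ERTU library was above each CD library for both genes.

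The genes that bring fatty acids into the mitochondrion and oxidize them were, gene by gene, higher on ERTU, and none passed the test. Of 11 genes of uptake and the carnitine shuttle, 11 were higher and 0 lower, with a median log2 fold change of 0.28 against -0.00 over all genes, of which 48.9% were higher. All 17 genes of mitochondrial beta-oxidation were higher, with a median of 0.20. The 9 peroxisomal genes also had a median of 0.20 and no negative value. Of these, Decr2 (0.002 ± 0.09) and Abcd2 (0.002 ± 0.15) were in effect unchanged. Of 20 listed targets of PPARA, the nuclear receptor that senses fatty acids, 17 were tested and the others were too low to test. All 17 were higher, with a median of 0.65. In these 4 lists 2, 2, 2 and 4 genes had an unadjusted p under 0.05, against 3.53% of all genes that were higher with such a p. Cpt1a, Cpt1b, Fabp3, Slc25a20, Acadm and Ehhadh are each counted in 2 of the lists, so the lists are not separate. Of these genes, only Cpt1a had an unadjusted p under 0.05. The genes of a list are measured in the same 9 hearts and are not independent of each other.

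Among the uptake and shuttle genes, Slc27a1, the fatty acid transport protein FATP1, had 238, 84.1, 84, 113 and 272 CPM on CD and 304, 214, 247 and 291 CPM on ERTU (log2 fold change 0.74 ± 0.32, unadjusted p = 0.0336). CD libraries 6 and 10 stood at the level of the ERTU group, while libraries 7, 8 and 9 were below every ERTU library. Cpt1a, the liver form of carnitine palmitoyltransferase 1, had 94, 41.4, 56.8, 47.2 and 94.3 CPM on CD and 92.8, 97.4, 95.3 and 103 CPM on ERTU (0.54 ± 0.26). The same 3 CD libraries were low. Cpt1b, the muscle form (0.47 ± 0.26), Slc25a20, the carnitine-acylcarnitine carrier (0.33 ± 0.17), Cd36, the fatty acid translocase (0.34 ± 0.19), and Fabp3, the heart fatty acid binding protein (0.28 ± 0.15), had smaller or less certain differences.

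Among the oxidation enzymes, Acaa2, the thiolase of the last step, stood at 558, 399, 468, 435 and 669 CPM on CD and 749.7, 591, 599.6 and 621 CPM on ERTU (0.34 ± 0.15). Decr1, which removes double bonds of unsaturated chains, stood at 272, 231, 233, 216 and 343 CPM on CD and 355, 304, 303 and 302 CPM on ERTU (0.29 ± 0.13). The groups overlapped through CD library 10 in both genes, and the ERTU libraries 17, 18 and 20 lay below it. Acadvl (0.23 ± 0.12) and Acadm (0.10 ± 0.11), dehydrogenases of very long and medium chains, Hadha (0.24 ± 0.14), a subunit of the trifunctional protein, and Eci1 (0.31 ± 0.15), an isomerase, overlapped between the groups. Of the peroxisomal genes, Pex11a (0.34 ± 0.16), which drives peroxisome division, and Ech1 (0.31 ± 0.15) had unadjusted p-values of 0.0437 and 0.0444, and Ehhadh (0.45 ± 0.25), the bifunctional enzyme, had one of 0.0859.

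The PPARA targets had the largest values and the widest spread. Pdk4, the kinase that turns off pyruvate dehydrogenase, had 1871, 150.3, 261, 105 and 1816 CPM on CD and 2039, 1306, 1507 and 2468 CPM on ERTU. Its 4 ERTU libraries were all high, whereas the CD group held 3 low libraries and 2 at the ERTU level, so the log2 fold change of 1.12 ± 0.77 had a 95% interval of -0.48 to 2.72. Acot1, a thioesterase, had 14.7, 3.96, 5.81, 2.8 and 33.8 CPM on CD and 48.4, 15.5, 25.7 and 43.3 CPM on ERTU (1.44 ± 0.68, unadjusted p = 0.0482). Ucp3, an uncoupling protein of muscle, had 79.6, 8.22, 14.8, 10.4 and 104 CPM on CD and 130.0, 61.1, 86.4 and 82.5 CPM on ERTU (1.05 ± 0.64). Plin2, a coat protein of lipid droplets (0.69 ± 0.33), and Mlycd, malonyl-CoA decarboxylase (0.62 ± 0.29), had the same 3 CD libraries lowest.

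**Figure D3:**
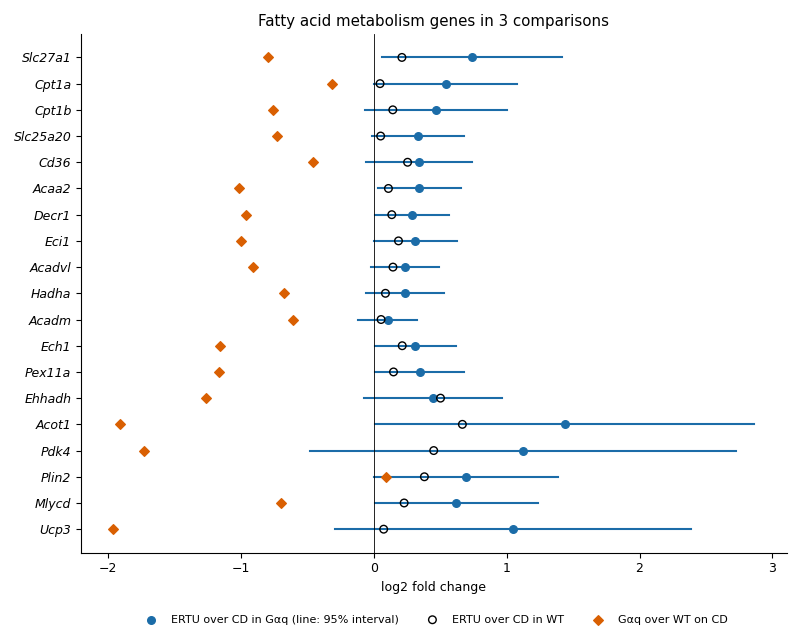
Log2 fold changes of 19 genes of fatty acid metabolism: ERTU over CD in Gαq (filled blue, line for the 95% interval), ERTU over CD in WT (open) and Gαq over WT on CD (orange diamonds). All 19 blue points lie above 0, with Acot1 highest at 1.44, and 18 of the 19 diamonds lie below 0, with Plin2 as the exception.

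The summed level of the 17 beta-oxidation genes was 9055, 6941, 7379, 7449 and 9699 CPM on CD and 10261, 9477, 8813 and 8663 CPM on ERTU. CD libraries 7, 8 and 9 were the lowest of the 9, and CD libraries 6 and 10 lay within the range of the ERTU libraries. In WT CD the summed level ran from 11536 to 14998 CPM, above every Gαq library. Gnaq was highest in CD libraries 7, 8 and 9 and lowest in CD library 10. Across the 9 hearts the first principal component, with 30.6% of the variance, had these 3 CD libraries at one end and ERTU libraries 16, 18 and 20 with CD library 10 at the other. The share of this variation among CD hearts in the effect of ERTU was not tested.

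**Figure D4:**
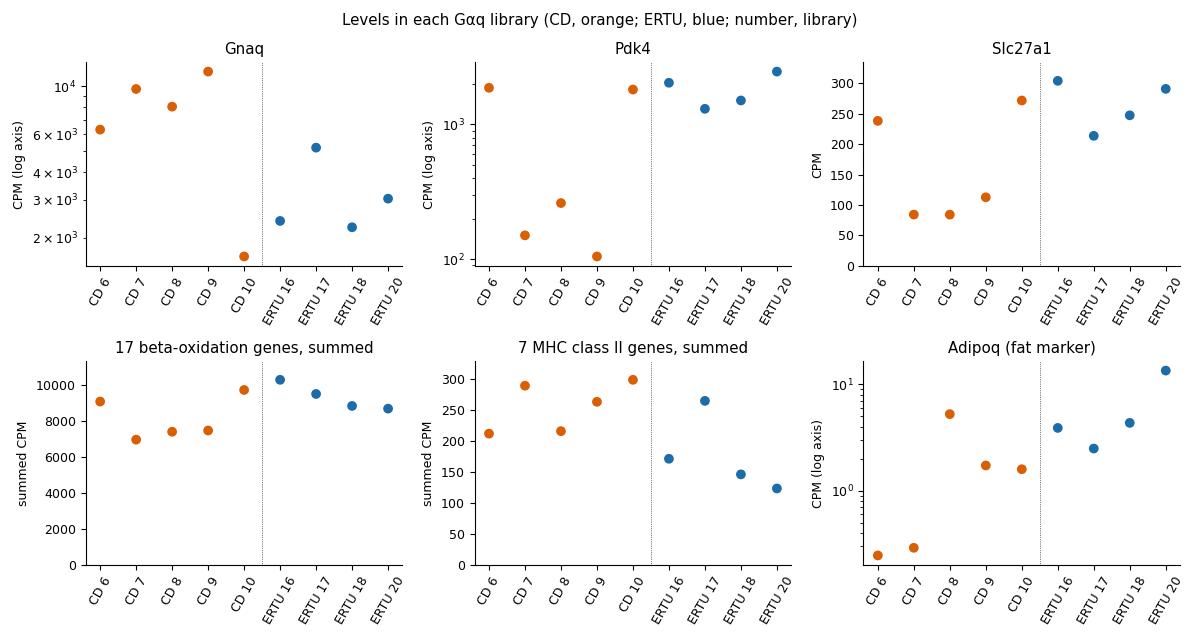
Levels in each of the 9 Gαq libraries (CD in orange, ERTU in blue) of Gnaq, Pdk4 and Adipoq in CPM on log axes, of Slc27a1 in CPM, and of the 17 beta-oxidation and 7 MHC class II genes as summed CPM. CD libraries 7, 8 and 9 are low in Pdk4, Slc27a1 and beta-oxidation and high in Gnaq, and ERTU libraries 16, 18 and 20 are the lowest in MHC class II.

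The respiratory chain differed by little. Of 36 genes of complex I, 32 were higher and 4 lower on ERTU, with a median log2 fold change of 0.07. Complexes II, III and IV gave 21 higher and 4 lower (median 0.07), and ATP synthase gave 14 and 2 (median 0.09). None of the genes of these 3 lists had an unadjusted p under 0.05. Ndufb8, a subunit of complex I, had a log2 fold change of 0.21 ± 0.10, Cox4i1 of complex IV one of 0.23 ± 0.11, and Atp5b, the catalytic beta subunit of ATP synthase, one of 0.10 ± 0.11. The 95% intervals of Ndufb8 (-0.01 to 0.42) and Cox4i1 (-0.01 to 0.47) ended below 0.5 log2 units. In the TCA cycle, 14 of 19 genes were higher (median 0.03), with Idh2 (0.21 ± 0.12), the mitochondrial isocitrate dehydrogenase, and in branched-chain amino acid catabolism 14 of 17 (median 0.10). Glycolysis and glucose transport gave a median of 0.03, with Slc2a4, the insulin-regulated transporter GLUT4, at -0.14 ± 0.17.

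The regulators of these enzymes were near 0. Ppargc1a, the coactivator PGC-1 alpha, stood at 124, 88.9, 104, 92.5 and 89.9 CPM on CD and 96.8, 118, 111 and 92.9 CPM on ERTU (0.07 ± 0.16). Ppara (-0.10 ± 0.22) and Esrra (0.05 ± 0.09), the receptors that act with it, had overlapping groups as well. Tfam, which packs and transcribes mitochondrial DNA, had the smallest unadjusted p of the 16 regulators (0.0226) and was lower on ERTU, with 49.1, 48.4, 43.2, 47.6 and 41.7 CPM on CD and 38.2, 44.4, 37.5 and 38.9 CPM on ERTU (-0.21 ± 0.08). Pank1, a kinase of coenzyme A synthesis, had a log2 fold change of 0.38 ± 0.23.

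Of 9 genes of ketone metabolism, 4 were higher and 5 lower, with a median log2 fold change of -0.12, which was 0.042 without CD library 6 and 0.073 without CD library 8. Slc16a1, the monocarboxylate transporter MCT1, had 198, 259, 260.1, 213 and 151 CPM on CD and 160.0, 179.7, 161 and 169 CPM on ERTU (-0.37 ± 0.15, unadjusted p = 0.0245), and CD library 10 was the lowest of the 9. Oxct1, which transfers coenzyme A to acetoacetate (-0.17 ± 0.13), and Bdh1, beta-hydroxybutyrate dehydrogenase (-0.12 ± 0.27), overlapped between the groups.

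Proteins proposed as cardiac targets of this drug class were examined from a list of 10 tested genes, of which 6 were lower. Slc5a1, the transporter SGLT1, was a low gene and had a log2 fold change of 0.73 ± 0.62. Camk2d, the calcium/calmodulin-dependent kinase of cardiomyocytes, had 177, 238, 189, 249 and 137 CPM on CD and 121, 180.3, 134 and 126 CPM on ERTU (-0.50 ± 0.17, unadjusted p = 0.00827). Nos1, the neuronal nitric oxide synthase, had 1.47, 4.35, 2.01, 2.8 and 0.328 CPM on CD and 0.183, 1.38, 0.339 and 0.367 CPM on ERTU (-1.93 ± 0.64, unadjusted p = 0.00645). In both genes CD library 10 was the lowest of its group and lay within the ERTU range, and ERTU library 17 was the highest of its group. For Gnaq too, library 10 was the lowest on CD and library 17 the highest on ERTU.

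The list of fetal and hypertrophy genes was mixed, with 7 of 16 tested genes higher on ERTU and 9 lower. Nppa, atrial natriuretic peptide, stood at 19069, 10626, 11653, 13513 and 14183 CPM on CD and 21072, 14893, 14205 and 14121 CPM on ERTU (0.22 ± 0.31), against a mean of 410.0 CPM in WT CD. Nppb, B-type natriuretic peptide, had a log2 fold change of -0.08 ± 0.23, and Myh7, beta myosin heavy chain, one of 0.29 ± 0.25. None of these 3 showed a separation of the groups. Lower values with an unadjusted p under 0.05 were found for Rcan1, an inhibitor and target of calcineurin (-0.41 ± 0.15), for the actin-binding genes Xirp2 (-0.62 ± 0.25) and Enah (-0.47 ± 0.19), and for Fhl1, a LIM domain protein (-0.29 ± 0.14), which is named because its p passed that limit. Rcan1 had 288, 258, 323, 273 and 198 CPM on CD and 205, 241, 142 and 219 CPM on ERTU. Ankrd1 (-0.35 ± 0.18), a stretch-responsive protein, and Acta1 (-0.72 ± 0.45), skeletal alpha-actin, were lower with wider error. Ces1d (0.47 ± 0.19), a carboxylesterase that the list also holds, was higher.

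Genes of the adult contractile apparatus did not separate the groups. Of 18 tested, 11 were higher and 7 lower, with a median log2 fold change of 0.05 and no unadjusted p under 0.05. Myh6, alpha myosin heavy chain, had 40527, 25009.6, 28248, 31624 and 28082 CPM on CD and 30434, 43696, 30978 and 29206 CPM on ERTU (0.13 ± 0.18), with ERTU library 17 highest. Atp2a2, the calcium pump SERCA2 (-0.04 ± 0.16), and Tnnt2, cardiac troponin T (0.23 ± 0.15), were within the spread between libraries.

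In the matrix, 21 of 28 genes were lower on ERTU and 7 higher, with a median log2 fold change of -0.22, and 3 of the 28 had an unadjusted p under 0.05 in the lower direction, against 4.09% of all genes. Col8a1, a short-chain collagen, led with 68.9, 111, 91.7, 114 and 55.2 CPM on CD and 45.1, 61.1, 48.3 and 55.9 CPM on ERTU (-0.75 ± 0.20, unadjusted p = 0.00153). CD library 10 was again the lowest of the CD group and within the ERTU range. Loxl1 (-0.48 ± 0.19), a crosslinking enzyme, and Sparc (-0.31 ± 0.15), a collagen-binding protein, followed. The fibrillar collagens Col1a1 (-0.46 ± 0.27) and Col3a1 (-0.57 ± 0.28) were below every CD library in ERTU libraries 16 and 18 and within the CD range in the other 2, with Col3a1 at 529.7, 495, 613, 748 and 328 CPM on CD and 227, 496, 259.6 and 483 CPM on ERTU. Tgfb2 (-0.44 ± 0.24) and Postn (-0.31 ± 0.37) were lower and Ccn2 (0.30 ± 0.37), connective tissue growth factor, higher, all within the spread. In WT the median over the same 28 genes was -0.25.

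Inflammatory genes were mostly lower on ERTU. Of 22 tested, 16 were lower, 9 of them with an unadjusted p under 0.05, and 6 were higher, none of them with such a p. Over all genes tested 51.1% were lower, and 4.09% were lower with an unadjusted p under 0.05. The median log2 fold change was -0.32 in Gαq and -0.08 in WT. Themis2 is 1 of the 9, and it was put in this list with its result known. Nlrp3, the sensor of the inflammasome, had 1.17, 1.6, 1.19, 0.893 and 0.749 CPM on CD and 0.67, 0.609, 0.508 and 0.321 CPM on ERTU (-1.10 ± 0.30), with no overlap. Ccl12, a chemokine for monocytes, had 0.676, 3.48, 1.19, 1.91 and 1.08 CPM on CD and 0.852, 0.332, 0.0564 and 0.321 CPM on ERTU (-2.10 ± 0.83), and 1 ERTU library fell within the CD range. Cx3cl1, the fractalkine ligand of the receptor encoded by Cx3cr1, had 17.2, 15.6, 16.7, 16.2 and 13.3 CPM on CD and 10.3, 13.7, 10.8 and 12.4 CPM on ERTU (-0.42 ± 0.16), and only ERTU library 17 reached the CD range. Cxcl12, a chemokine that endothelium and fibroblasts make, was at -0.30 ± 0.13.

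All 7 MHC class II genes tested, which present antigen on macrophages, dendritic cells and B cells, were lower on ERTU, with a median of -0.51 and 4 unadjusted p under 0.05, against 4.09% of all genes in that direction. H2-Eb1 (-0.97 ± 0.35), H2-Ab1 (-0.59 ± 0.25) and the invariant chain Cd74 (-0.55 ± 0.23) led. Cd74 had 97.8, 130.3, 90.1, 126 and 132 CPM on CD and 77.3, 116, 64 and 56.9 CPM on ERTU. ERTU library 17 lay within the CD range, and the other 3 ERTU libraries were below all CD libraries. The summed level of the 7 genes was 211, 289, 215, 263 and 298 CPM on CD and 171, 264, 146 and 123 CPM on ERTU. In WT the median was -0.38.

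Markers of the cells that carry these genes were measured beside them. Of 10 macrophage markers, 8 were lower, with a median of -0.12 against -0.00 over all genes, and their summed level was 558, 527, 761, 449.7 and 512 CPM on CD and 511, 409, 570.4 and 636 CPM on ERTU. The sums overlapped. Csf1r, the receptor for CSF1 on all macrophages, had 99.1, 78.4, 101, 85.1 and 96.6 CPM on CD and 88.3, 79.3, 105 and 101 CPM on ERTU (0.02 ± 0.13, 95% interval -0.26 to 0.30). Fcgr1, a high-affinity receptor for IgG, had 2.64, 3.14, 4.21, 3.39 and 3.79 CPM on CD and 2.25, 2.05, 2.31 and 1.47 CPM on ERTU (-0.77 ± 0.25), with no overlap. Adgre1, which encodes F4/80, was at -0.38 ± 0.14, while Cd163, a marker of resident macrophages, was at 0.57 ± 0.35. In bulk tissue, fewer cells of a type and less RNA per cell cannot be told apart.

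Of 8 lymphocyte markers, 5 were tested, and all 5 were lower, with a median of -0.58. Ptprc, the leukocyte antigen CD45, had 15, 20.9, 18.9, 15.5 and 15.5 CPM on CD and 10.3, 16.1, 12.6 and 12.9 CPM on ERTU (-0.41 ± 0.13). Cd4 had 2.27, 2.22, 2.7, 2.98 and 2.58 CPM on CD and 1.83, 1.44, 1.81 and 1.74 CPM on ERTU (-0.58 ± 0.21), with no overlap. The summed level of the lymphocyte markers was 20.5, 29.3, 24.4, 21.6 and 21.9 CPM on CD and 15.8, 19.3, 16.2 and 18.7 CPM on ERTU. The sums did not overlap, but Ptprc, a gene of leukocytes in general, made up most of each. Cd4, the highest of the others, reached 2.98 CPM. The sum is thus not a measure of lymphocytes alone, and a sum without Ptprc was not compared. Interferon-stimulated genes gave 16 of 20 lower, with a median of -0.17, where 51.1% of all genes were lower. Of the 20, 1 was lower with an unadjusted p under 0.05, near the share of 4.09% over all genes. Of 7 NADPH oxidase genes, 3 were higher and 4 lower, with a median of -0.03. Of these, Rac2 (-0.48 ± 0.18) and Ncf4 (-0.49 ± 0.21), which encode the subunits of blood cells, were lower with no overlap, as were 0.854% of all genes.

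Of 15 stress genes tested, 5 were higher and 10 lower on ERTU, with a median log2 fold change of -0.20, against 0.10 in WT. Of the 15, 2 were lower with an unadjusted p under 0.05, against 4.09% of all genes. These were Asns (-0.41 ± 0.18), asparagine synthetase, and Mthfd2 (-0.51 ± 0.21), of mitochondrial folate metabolism, both targets of ATF4. Mthfd2 had 16.2, 10.9, 13.8, 12 and 15 CPM on CD and 7.18, 12.6, 7.62 and 10.6 CPM on ERTU, against a mean of 3.22 CPM in WT CD. Gdf15, a secreted stress signal, had 21.6, 24.7, 35.9, 32.8 and 11 CPM on CD and 8.16, 37.3, 8.07 and 5.56 CPM on ERTU (-0.77 ± 0.46), where ERTU library 17 was the highest of the 9. Without that library its log2 fold change was -1.80. Of 18 apoptosis genes, 10 were higher and 8 lower, with a median of 0.04, and Bcl2l1, which opposes cell death, had the highest value (0.79 ± 0.37). Antioxidant genes were higher in 18 of 24 cases, with a median of 0.07.

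**Figure D5:**
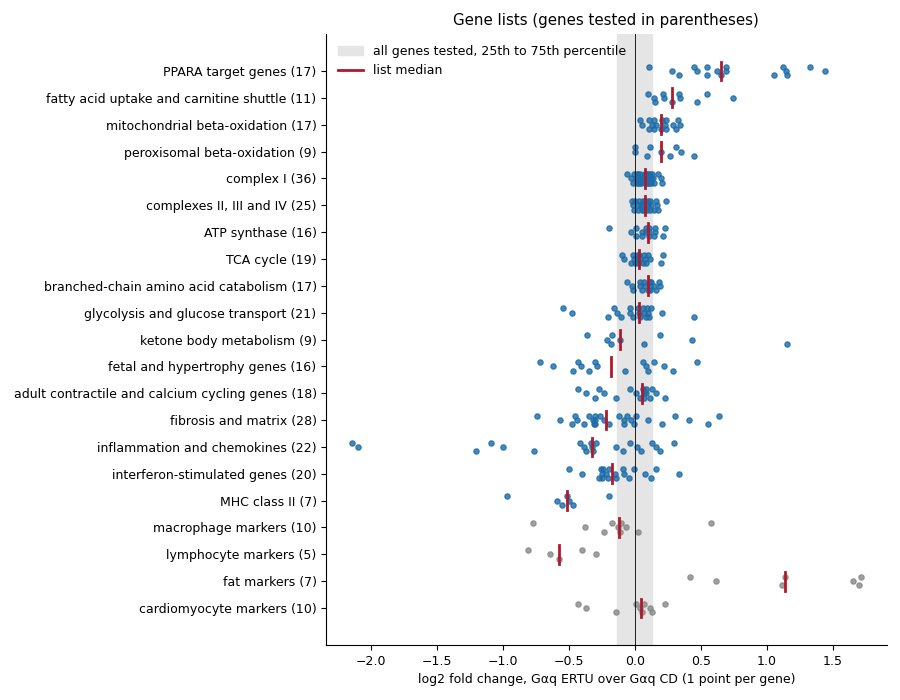
Log2 fold change of Gαq ERTU over Gαq CD for each gene of 17 gene lists (blue) and 4 lists of cell type markers (grey), with the list median in red and the 25th to 75th percentile of all genes tested shaded. The medians of the PPARA targets (0.65) and the fat markers (1.14) lie furthest above 0, and those of the lymphocyte markers (-0.58) and MHC class II (-0.51) furthest below.

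The composition of the tissue differed between libraries of the same group. Cardiomyocyte markers summed to between 78013 and 102606 CPM in Gαq CD and between 77276 and 104987 CPM in Gαq ERTU. All 7 fat markers tested were higher on ERTU (median 1.14). Adipoq, made by fat cells, had 0.246, 0.29, 5.26, 1.73 and 1.59 CPM on CD and 3.9, 2.49, 4.35 and 13.5 CPM on ERTU (1.71 ± 0.72), and Cidec (1.69 ± 0.74), Plin1 (1.14 ± 0.64) and Cfd (1.66 ± 0.88) had the same libraries high, CD library 8 and ERTU library 20. Without ERTU library 20 the log2 fold change of Cfd was -0.02. Fabp4, which endothelium also makes, had 894, 568, 606, 535 and 1199.8 CPM on CD and 1483, 613, 1095 and 1461 CPM on ERTU (0.61 ± 0.28). These fat cell genes are low, and the part of fat in the fatty acid genes was not tested. Atrial tissue was also uneven. Myl7, the atrial myosin light chain, had 0, 0.532, 138, 28 and 2.53 CPM on CD and 32, 33.7, 5.76 and 92.4 CPM on ERTU (0.27 ± 1.45), and Sln, sarcolipin, had the same 2 libraries highest (0.08 ± 1.39). Comp, a marker of valve and cartilage, was at 7.49, 7.4, 96, 9.05 and 13.7 CPM on CD and 49.9, 39.1, 38.2 and 39.9 CPM on ERTU. With CD library 8 and ERTU library 20 left out, Themis2 had a log2 fold change of -0.72 and no gene passed the adjusted test.

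The same diet in WT gave a comparison with no library in common. No gene passed an edgeR adjusted p of 0.05 there, and 365 (2.24%) had an unadjusted p under 0.05, 131 of them higher (0.805%) and 234 lower (1.44%). Across the 16270 genes the log2 fold changes in the 2 genotypes had a Pearson r of 0.243, a description over genes that share libraries. Of all these genes, 60.5% had the same sign in both genotypes. Among the 1240 genes with an unadjusted p under 0.05 in Gαq, 934 (75.3%) had the same sign in WT. All 17 PPARA targets tested were higher in WT too, with a median of 0.32 (0.65 in Gαq). So were all 17 beta-oxidation genes, with a median of 0.11 (0.20 in Gαq). Other lists had the higher median in WT. These medians were 0.09 in WT and 0.07 in Gαq for complex I, and 0.13 and 0.07 for complexes II, III and IV. They were 0.08 and 0.03 for the TCA cycle, and 0.11 and -0.12 for ketone metabolism. A difference of the ERTU effect between genotypes was called for no gene by edgeR, DESeq2 or voom, and 313 genes (1.92%) had an unadjusted edgeR p under 0.05 for it, 148 toward a higher effect in Gαq (0.91%) and 165 toward a lower one (1.01%). Lcp2 had the smallest such p of the genes named here (0.000109), with 0.27 in WT against -0.95 in Gαq. An effect confined to Gαq was therefore not shown for any gene, Themis2 included.

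For some of the lists, the effect of the transgene on CD is given beside that of ERTU. Both use the Gαq CD libraries, so that their signs are not independent. On CD 1318 genes (8.1%) differed between Gαq and WT, 651 higher (4.0%) and 667 lower (4.1%), with 788 without WT CD library 1 and 851 without WT CD library 2. The median of the PPARA targets was -0.76 for Gαq over WT and 0.65 for ERTU over CD in Gαq. For beta-oxidation the values were -0.66 and 0.20, with 13 of 17 genes called lower in Gαq. In the TCA cycle they were -0.47 and 0.03, and for complex I -0.26 and 0.07. For fetal and hypertrophy genes the medians were 1.33 and -0.18, and for fibrosis 0.65 and -0.22. Not all lists had opposite signs. The medians were -0.23 and -0.12 for ketone metabolism, -0.23 and -0.02 for the regulators of mitochondrial biogenesis, and 0.08 and 0.08 for the cytosolic ribosome. For the fat markers they were 0.34 and 1.14. Acaa2 had a log2 fold change of -1.01 for Gαq over WT and of 0.34 for ERTU over CD. Nppa had values of 5.07 and 0.22.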

How the data were processed

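Gene expression was measured by RNA sequencing of poly(A)-selected RNA from frozen left ventricle in 18 libraries, 9 of them from Gαq mice. The deposited table holds raw counts of read pairs per Ensembl gene. For these counts the authors aligned reads to build mm10 with STAR 2.6.0c and counted uniquely aligned, properly paired reads on the same strand over nuclear-encoded genes with featureCounts (Subread 1.6.2), tool names and versions being those of the submitters' processing notes and the study's methods. Genes encoded by mitochondrial DNA are therefore not measured. A second deposited table, of variance-stabilized values that the authors made with DESeq2, was not used. The series' design text names 5 mice per group, and the 18 libraries given were analysed here. The library numbers run across the series and are not linked to the replicate numbers of the labels, so columns were mapped to groups only.

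Of 55450 gene IDs, 55104 (99.4%) matched a symbol. Positions are from GENCODE M21 (GRCm38, the same assembly as mm10). The filterByExpr function, given the 4 groups, retained 16270 genes. Those removed carried 0.0906% of all counts. Counts were scaled by TMM and fitted with 1 mean per group over all 18 libraries by the quasi-likelihood test of edgeR 4.0.16 (R 4.3.3). ERTU in Gαq was the contrast of the 2 Gαq groups. P-values were adjusted over all genes by the Benjamini-Hochberg method with a threshold of 0.05. Unadjusted p-values are named as such and are from the same fit. CPM values take TMM-scaled library sizes. Where log2 CPM are given, the prior count was 2. Intervals are 95% intervals of the fit. The labels gave no batch. The steps were tested on simulated counts with known changes.

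The 29 gene lists and 15 lists of cell type markers, and the choice of this comparison, were made with earlier results of these data known. Genes were named by rule: Gnaq, genes called by edgeR or DESeq2, the 12 genes per direction with the smallest p and the 3 with the largest fold at p under 0.01 (both with mean log2 CPM of at least 1 over the 9 Gαq libraries and groups not overlapping), a panel of cardiac genes, from each list up to 4 genes by p and 2 more by level, the markers Myl7, Sln, Adipoq and Fabp4, and marker lists whose sum varied within a group by over 2 times. Some genes that the rule names are not reported here. Lists are described by counts and medians, with no test. The comparisons were repeated with DESeq2 1.42.0, with voom (limma 3.58.1, weighting samples by quality), with size factors by median of ratios, without the filter, with a filter on mean CPM of 1, with the 2 groups alone, and 18 times with 1 library removed. A repeat without Gαq CD library 8 and Gαq ERTU library 20 was added after seeing the data. Promoter sequences are from RefSeq, build GRCm38.p6, and all 5 genes searched had an entry.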

Additional observations from a re-analysis of the deposited data

Results flagged for a closer look

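The sets of values numbered 264, each a named gene, a marker list or the total count in 1 of the 2 Gαq groups. Of these, 23 held a library apart from the others by Dixon's test at the 95% level. For normal values chance gives about 1 in 20, or 13.2. The CPM were not logged, 20 of the 23 were high, and many sets share genes or libraries. The 2 counts are therefore not a measure of excess. The gap to the nearest library as a share of the whole range is given for each. The causes were not tested.

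Gαq CD library 8 stood apart 10 times. It was high in Myl7 (0.798), Sln (0.812), Nppb (0.814), Cidec (0.741), Cfd (0.849), Comp (0.929), Egr1 (0.718) and the summed markers of mesothelium (0.941) and of valve and cartilage (0.972). It was low in Myh7 (0.926), at 4000.4 CPM against 7832 to 8137 CPM in the other 4. The valve and cartilage markers summed to 208 CPM against 15.6 to 21 CPM.

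Gαq ERTU library 17 stood apart 6 times. It was high in Gdf15 (0.918), Myh6 (0.878), Tgfb2 (0.847) and Nos1 (0.846) and low in C3ar1 (0.879) and Per1 (0.834). Its Gdf15 was 37.3 CPM against 5.56 to 8.16 CPM in the other 3.

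Gαq ERTU library 16 was high in Decr1 (0.965), Nppa (0.889), Comp (0.859) and the summed atrial markers (0.888), which Nppa dominates. Gαq ERTU library 20 was high in the fat genes Cfd (0.981), Cidec (0.862) and Adipoq (0.832).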

How the results depend on the processing

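The number of genes called for ERTU in Gαq was 1 with edgeR, and also 1 with median-of-ratios size factors, with a mean CPM of at least 1 and with voom. It was 0 without the filter on low counts, 0 when only the 2 groups were fitted, 0 whichever of the 18 libraries was removed (range 0 to 0) and 5 with DESeq2. Without Gαq CD library 8 and Gαq ERTU library 20, an alternative chosen after seeing the data as the library of each group with the most Myl7 and Sln, it was 0. The log2 fold change of Themis2 was -0.72 to -0.81 in all of these, with an adjusted p from 0.000842 (DESeq2) to 0.799 (without libraries 8 and 20), 0.311 without the filter and 0.504 with the 2 groups alone. Genes with an unadjusted edgeR p under 0.05 numbered 1240, and 641 to 2160 when 1 library was left out: 641, 761, 805, 859, 1639, 1978 and 2160 without Gαq CD 7, CD 9, ERTU 16, ERTU 18, CD 6, ERTU 17 and CD 10. Without CD 8 and ERTU 20 there were 825, without the filter 1955 and with voom 2532. ERTU in WT and the interaction gave 0 genes under each alternative. Gαq on CD gave 1318, and 788 to 1414 with 1 library left out.

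Of 2895 values of 116 named genes under alternatives, 2845 kept their direction and their side of the threshold, 21 lost the call (all Themis2), 4 gained one (all DESeq2) and 25, from 11 genes near 0 or with wide error, changed sign. With 1 library left out, the log2 fold change ran from -0.35 to 0.042 for Bdh1, -0.31 to 0.10 for Ppara, -0.19 to 0.11 for Nppb, -0.023 to 0.25 for Myh6, -0.19 to 0.026 for Atp2a2, -0.51 to 2.43 for Myl7, -1.06 to 2.33 for Sln, -0.041 to 0.091 for Csf1r, -0.023 to 3.07 for Cfd and -0.33 to 0.63 for Egr1. Voom gave -0.11 for Egr1, and the fit without CD 8 and ERTU 20 gave -0.00059 for Esrra. Of 968 list medians under alternatives, 957 moved by less than their spread and 11 by more. The cause was not tested for any of these. No paired analysis was possible because the numbers of the columns run across the series, so that the groups share none. Depth limits the precision of genes with few counts.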

Other observations

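Clock genes set the daily rhythm of transcription. Of 15 clock genes, 7 were higher and 8 lower on ERTU (median log2 fold change -0.02). Per1, a repressor of the clock that also responds to glucocorticoids, had 72.6, 43.6, 28.8, 61.7 and 65.2 CPM on CD and 105, 72.4, 99.4 and 104 CPM on ERTU (0.81 ± 0.23, unadjusted p = 0.00222), and Per2 had 24.9, 29.3, 39.5, 33.2 and 34.8 CPM on CD and 51.1, 31.4, 61.1 and 45.4 CPM on ERTU (0.55 ± 0.17, unadjusted p = 0.00507). In WT the values were -0.02 and -0.08, with unadjusted interaction p-values of 0.0192 and 0.0193. ERTU library 17 was within the CD range for both genes.

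Immediate early genes are transcribed within minutes of a stimulus. Of 12 of them, 9 were higher (median 0.21). Jun had a log2 fold change of 0.45 ± 0.19 and Dusp1 one of 0.50 ± 0.23, both with the groups overlapping, and Egr1 had 22.3, 18, 33.1, 19.4 and 19.5 CPM on CD and 7.55, 59, 12.7 and 33 CPM on ERTU. Genes of the cytosolic ribosome were higher in 27 of 34 cases (median 0.08), with no unadjusted p under 0.05, and those of the mitochondrial ribosome had a median of 0.01.

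Other marker lists had medians of 0.06 (endothelium), -0.10 (fibroblast), 0.04 (smooth muscle and pericyte), 0.57 (skeletal muscle), 0.28 (brown fat), 0.22 (atrium), -0.26 (neutrophil and mast cell), 0.40 (red blood cell), -0.29 (Schwann cell), 0.20 (mesothelium) and 0.52 (valve and cartilage), and the signalling list of Gq one of 0.04. Single libraries moved some of these. Without CD library 8 the medians were 1.81 (atrium), 2.31 (mesothelium), 2.14 (valve and cartilage) and 0.17 (Schwann cell), and without CD library 6 they were -0.011 (atrium) and -0.11 (mesothelium).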
